A study of Mus musculus with 22 samples.

Results

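The cortex opposite a closed eye was compared with the cortex on the same side as that eye, within the RNA that astrocyte ribosomes carried. Of the 22 samples of the series, 8 came from this experiment, namely 3 contralateral and 3 ipsilateral pulldown libraries and 1 input library for each side. The contralateral pulldowns were set against the ipsilateral pulldowns of the same replicate number, which gave 3 pairs. All 8 came from visual cortex of C57BL/6J mice at postnatal day 28, after 2 days of monocular deprivation. Every animal carried the 73.12 GFAP-cre transgene together with the RPL22-HA allele, so the tagged ribosomal protein was made wherever the Gfap promoter construct had driven Cre, and no group lacked either allele. Brains were perfused with 1% paraformaldehyde before dissection, ribosomes were captured with an antibody against the tag, and poly(A) RNA was sequenced, while input is the RNA before capture. The study's open-eyed controls were of another age, and the ipsilateral cortex served here as the reference although it too belonged to a deprived animal. Normally reared and dark-reared mice of day 45 entered as a scale for levels. Together with mice of day 120 after 10 days of dark, they also entered a check of the processing.

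In mice most fibres of the optic nerve cross, so the binocular visual cortex is driven mainly by the eye of the opposite side. Closing an eye during the juvenile critical period therefore removes most patterned drive from the contralateral cortex, and over days the responses of cortical neurons shift toward the open eye. Astrocytes surround the synapses of this circuit, take up glutamate and GABA, buffer potassium, supply cholesterol and lactate, and secrete proteins that act on synapse maturation. Immediate early genes are transcribed within minutes of strong activity or growth factor signals, in neurons and in glia, and are commonly read as a trace of recent stimulation.

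The pulldowns carried the labelled cell type. All 25 astrocyte markers were above input, with a median log2 ratio of pulldown to input of 2.48 contralaterally and 2.49 ipsilaterally. All 19 neuron markers past the filter were below input, with medians of -2.61 and -2.78, and all 10 measured microglia markers were below it. Oligodendrocyte markers were above input for 11 of 13 genes, with a median of 0.46, so RNA of that lineage was not depleted. The replicate number set the libraries further apart than the side did. It took 87.3% of the sum of squares over the 6 libraries, against 4.59% for the side and 8.09% for the rest. The side thus took less than was left unexplained. For the number, 8309 of 11370 genes (73.1%) passed. The ribosomal RNA precursor Rn45s was at 31653.8, 24823.8 and 130.3 FPKM in contralateral replicates 1, 2 and 3 and at 25935.9, 20158.5 and 159.5 FPKM in the ipsilateral ones. FPKM is a fragment count scaled to transcript length and library size. Across genes, the difference of number 3 from numbers 1 and 2 correlated with transcript length at a Spearman rho of 0.62. The difference between sides did so at -0.17, -0.19 and 0.38 in pairs 1, 2 and 3. For the mean over the pairs, where these opposite signs offset each other, it was -0.05. Estimated depth was 26.6 to 50.5 M reads in 7 of the 8 libraries, and contralateral replicate 2, with no estimate, had the fewest genes above 0 (14092, against 15202 to 15432 in the other 5 pulldowns).

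Between the sides, 1 gene passed the threshold, and the differences over all genes leaned toward lower contralateral values. Values were compared as log2(FPKM + 1), so differences of low genes are understated. The paired limma fit tested 11370 genes with a mean above 1 FPKM, and 1 gene had an adjusted p under 0.05 (0.00880% of genes). At an unadjusted p under 0.05, 591 genes (5.20%) were lower and 114 (1.00%) higher contralaterally. In all 3 pairs, 2401 genes (21.1%) were lower and 541 (4.76%) higher, and for 158 genes (1.39%) every contralateral library was below every ipsilateral one. The median difference was -0.06 over all genes, and -0.05, -0.14 and 0.00 in pairs 1, 2 and 3. This lean depended on the scaling. With quantile normalization 320 genes were lower and 247 higher at an unadjusted p under 0.05, with 13.6% lower and 10.8% higher in all pairs, and with median-ratio scaling 277 were lower and 253 higher. The number passing was 0 with either of these scalings and 0 without the pairing. It moved with the pairs used, from 11 without replicate 1 and 60 without replicate 2 to 1, the microRNA gene Mir7082 (named after its value was seen), without replicate 3. The labels do not say that libraries came from separate animals, so p-values measure the spread between these samples only. In bulk RNA, fewer cells of a type and less RNA per cell cannot be told apart.

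The within-pair differences had little in common across genes as a whole. Between pairs they correlated at 0.04 (pairs 1 and 2), 0.14 (pairs 1 and 3) and -0.03 (pairs 2 and 3) over 11370 genes, which share library depth and composition and are not independent. Against the difference between the single inputs, pairs 1 and 2 correlated at 0.01 and 0.06 and pair 3 at 0.41. The results that follow are therefore given pair by pair.

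Genes of the cytoskeleton were among the 15 with the smallest p on the lower side, without passing. Sptan1, alpha-II spectrin of the membrane skeleton, lies at chr2:29965560-30031451 (GRCm38). The contralateral libraries were at 58.6, 48.5 and 81.9 FPKM and the ipsilateral ones at 87.2, 72.4 and 110.3 FPKM. Each contralateral library was below its own pair, although the groups overlapped because replicate 3 was high on both sides. The difference was -0.52 ± 0.07 (adjusted p = 0.154), and the inputs differed by -0.05. Sept9, a septin that forms cytoskeletal filaments, was at 40.9, 37.2 and 48.1 FPKM contralaterally and 52.3, 52.5 and 69.8 FPKM ipsilaterally, a difference of -0.45 ± 0.08 (adjusted p = 0.282) with groups that did not overlap. Both genes were lower in every pair, and the inputs differed by -0.08 for Sept9.

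**Figure D1:**
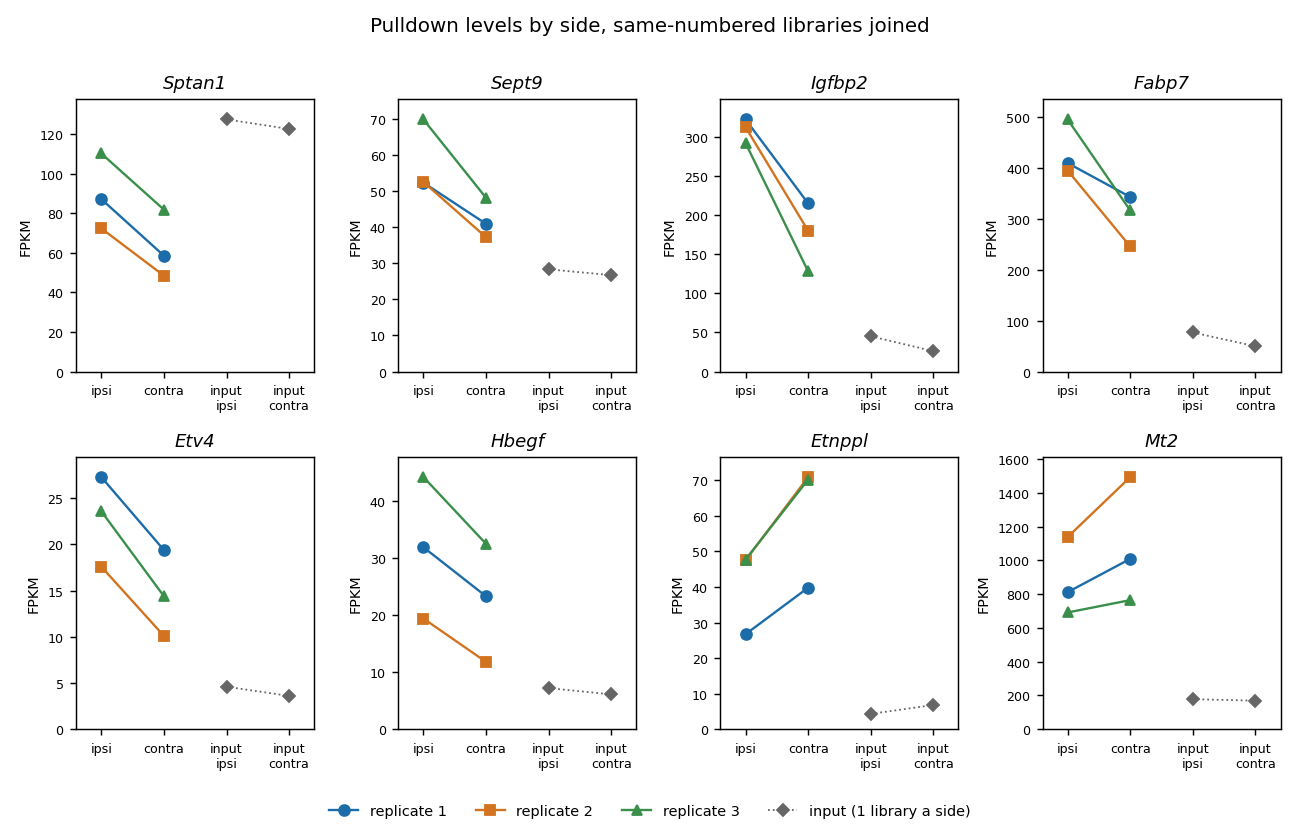
FPKM (linear axis from 0) of 8 named genes in the ipsilateral and contralateral pulldowns, with same-numbered libraries joined, and in the single input of each side. Sptan1 is lower contralaterally in all 3 pairs (58.6, 48.5 and 81.9 against 87.2, 72.4 and 110.3 FPKM), while Etnppl and Mt2 are higher in all 3.

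Immediate early genes had the lowest median difference of the 32 gene lists. Of 37 listed genes 30 passed the filter, and 21 of these were lower in all 3 pairs, against 21.1% of all genes. At an unadjusted p under 0.05, 16 were lower and 1 was higher, against 5.20% and 1.00% of all genes, and 0 passed over all genes. The median difference was -0.51, with -0.17, -0.88 and -0.40 in pairs 1, 2 and 3, and all genes had -0.06. With quantile normalization or median-ratio scaling 20 of the 30 were still lower in all pairs, against 13.6% and 13.7% of all genes. The 7 genes below the filter, Nr4a2 and Nr4a3 among them (named after their values were seen), are not in these counts.

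The promoters of some of these genes hold the core of the cAMP response element, the site through which the activity-regulated factor CREB is known to act. The letters TGACGTC, or GACGTCA on the other strand, were found in 7 of the 31 immediate early gene promoters present in RefSeq (22.6%) and in 3.6% of 27025 gene promoters of the same length. A match is a description of the letters and not of binding. The promoters of Npas4 (chr19:4989922-4990221, minus strand) and Dusp1 (chr17:26508423-26508722, minus strand) are shown as examples of this group, from RefSeq on GRCm38.p6, from 250 bases before the start, 5′ to 3′, with the matches in capitals. In Dusp1, 1 run of capitals holds a match on each strand, overlapping.
Npas4: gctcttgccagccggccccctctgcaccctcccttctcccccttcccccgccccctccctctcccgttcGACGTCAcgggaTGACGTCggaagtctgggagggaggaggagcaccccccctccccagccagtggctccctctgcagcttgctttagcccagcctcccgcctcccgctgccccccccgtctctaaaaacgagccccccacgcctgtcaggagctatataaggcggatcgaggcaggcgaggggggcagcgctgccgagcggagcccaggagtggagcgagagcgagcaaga
Dusp1: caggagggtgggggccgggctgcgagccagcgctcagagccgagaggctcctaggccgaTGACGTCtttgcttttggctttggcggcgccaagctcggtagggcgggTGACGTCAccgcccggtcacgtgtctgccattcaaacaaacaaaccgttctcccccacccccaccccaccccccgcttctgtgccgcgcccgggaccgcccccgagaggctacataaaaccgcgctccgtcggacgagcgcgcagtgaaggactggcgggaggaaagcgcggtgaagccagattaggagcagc

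Among the transcription factors, Fos had the smallest p of this group. Fos, a subunit of AP-1, was at 5.9, 4.9 and 9.7 FPKM in contralateral replicates 1 to 3 and at 13.2, 24.2 and 30.5 FPKM in the ipsilateral ones. The highest contralateral library was below the lowest ipsilateral one. The difference was -1.56 ± 0.19 (adjusted p = 0.154), 2.96-fold on the FPKM + 1 scale. The inputs were at 46.0 and 119.4 FPKM, a difference of -1.36.

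Npas4, a neuron-enriched factor induced by calcium entry, was at 1.9, 1.3 and 3.5 FPKM contralaterally and 3.3, 11.6 and 8.2 FPKM ipsilaterally. Its groups overlapped, since ipsilateral replicate 1 was below contralateral replicate 3, and the difference was -1.35 ± 0.40 (adjusted p = 0.78). Egr4 was at 1.7, 8.4 and 4.3 FPKM contralaterally against 3.7, 28.1 and 9.6 FPKM, a difference of -1.14 ± 0.16 (adjusted p = 0.154). Each pair pointed the same way, with replicate 2 the highest on both sides. The orphan nuclear receptor Nr4a1 was at 5.6, 10.1 and 14.3 FPKM against 11.1, 53.2 and 39.6 FPKM, a difference of -1.52 ± 0.29 (adjusted p = 0.643). Junb, another AP-1 subunit, was at 10.2, 19.1 and 12.3 FPKM against 15.1, 59.7 and 21.8 FPKM. For both, the gap was widest in pair 2, at -2.29 for Nr4a1 and -1.59 for Junb. Egr2 and Fosb, at 0.2 to 1.5 and 0.3 to 0.9 FPKM contralaterally, were near the limit set by values rounded to 0.1.

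Effectors and feedback regulators had the same direction. Arc, a neuronal protein that trims AMPA receptors from the synapse, was at 9.6, 11.7 and 20.2 FPKM contralaterally and 18.8, 56.4 and 45.4 FPKM ipsilaterally, a difference of -1.40 ± 0.28 (adjusted p = 0.653). Dusp1, a phosphatase that switches off MAP kinases, was at 11.7, 5.4 and 11 FPKM against 17.4, 19.7 and 20.1 FPKM, a difference of -1.01 ± 0.22 (adjusted p = 0.60). Its groups did not overlap, and those of Csrnp1, a transcription factor at 2.1, 1.6 and 2.2 against 3.4, 2.5 and 3.8 FPKM, did not either. Per1, a clock repressor, had a difference of -0.42 ± 0.11 and Sik1, a kinase that restrains CREB coactivators, one of -0.64 ± 0.15. Bdnf, the neurotrophin, stayed between 0.4 and 2.8 FPKM in the 6 pulldowns. Of the 3 genes with positive differences, 1 was higher in all pairs, namely Klf2 (named after its value was seen), a transcription factor best known in endothelium, at 2.3, 1.3 and 0.7 FPKM contralaterally and 0.7, 0.9 and 0.6 FPKM ipsilaterally. Endothelial and mural markers had medians of 0.73, -0.29 and -0.06 in pairs 1, 2 and 3, and their part in the Klf2 values was not tested.

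The same genes differed between the single inputs, and neuron markers differed in sign from pair to pair. Between inputs, 26 of 12535 genes (0.207%) were at least 2-fold lower and 30 (0.239%) at least 2-fold higher contralaterally, with no replicate to test this. The 10 largest lower differences among genes above 5 FPKM were Egr2, Tnnc1, Egr4, Npas4, Nr4a1, Fos, Arc, Fosb, Junb and Arl4d, of which 8 were listed immediate early genes. Of the 30 listed genes 29 were lower in the contralateral input, with a median of -0.92. Over all genes past the filter 6348 of 11370 were, with a median of -0.04. The pulldown held less of them than input did for 28 of 30, with a median log2 ratio of -2.15, and neuron markers had a median ratio of -2.50. Neuron marker FPKM summed to 594.6, 1975.8 and 920.8 in contralateral replicates 1 to 3 and to 526.1, 2482 and 647.5 in the ipsilateral ones, against 5715.3 and 6221.9 in the inputs. Their median difference was 0.10, -0.33 and 0.62 in pairs 1, 2 and 3. For the immediate early genes it was -0.17, -0.88 and -0.40, and pair 2 was the lowest for both lists. How much of the lower values came from RNA of neurons in the pulldown was not tested. With a median ratio of -2.15, most listed genes fell outside the genes at or above 0.75 of input. Those left had a median difference of -0.24, and 1 of them, Cyr61, was lower in all pairs. Only 2 of the 30 were above input. Neither the median nor the count has the share over all genes at that level beside it, so they describe those genes only.

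Cyr61, a secreted matricellular protein also called Ccn1, was the listed gene whose pulldown level was close to input, with a log2 ratio of 0.01. It was at 13.07, 9.488 and 26.667 FPKM contralaterally and 17.615, 15.747 and 54.146 FPKM ipsilaterally. Each contralateral library was below its pair, by -0.40, -0.68 and -0.995. The difference was -0.69 ± 0.12 (adjusted p = 0.282), and the inputs were at 14.016 and 31.362 FPKM.

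**Figure D2:**
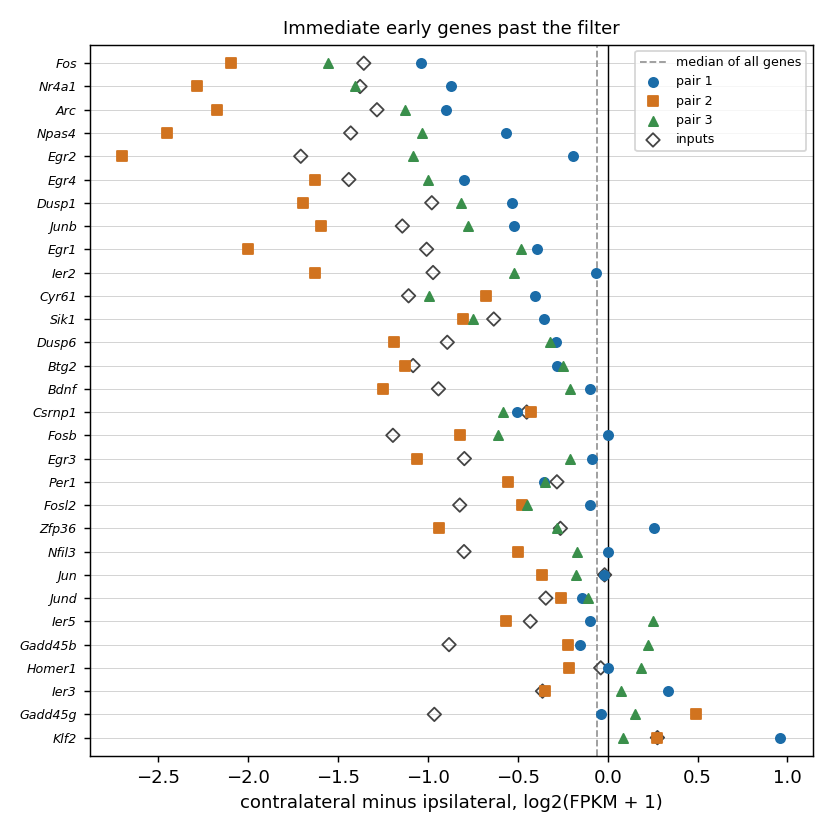
Contralateral minus ipsilateral difference in log2(FPKM + 1) for the 30 immediate early genes past the filter, in each of the 3 pairs (filled) and between the single inputs (open diamonds), with the median of all genes as a dashed line. Fos has the lowest mean difference (-1.56) and Egr2 the lowest single values (-2.70 in pair 2 and -1.71 between the inputs), and Klf2 is to the right of 0 in every pair.

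Igfbp2, Etv4 and Hbegf, which belong to growth factor signalling, were also among the 15 genes with the smallest p on the lower side. Of the 15 measured neurotrophin, cytokine and growth factor ligands 5 were lower and 3 higher in all pairs, against 21.1% and 4.76% of all genes. Igfbp2, a secreted binder of insulin-like growth factors, was at 214.8, 179.8 and 128.0 FPKM contralaterally and 322.0, 312.2 and 291.9 FPKM ipsilaterally. All contralateral libraries were below all ipsilateral ones. The difference was -0.85 ± 0.11 (adjusted p = 0.154), or 1.81-fold, and the inputs, at 26 and 45.1 FPKM, differed by -0.77. Over the insulin-like growth factor list as a whole 4 of 12 genes were lower in all pairs, against 21.1% of all genes, and the median in pair 3 was 0.19, so the list did not share the values of Igfbp2.

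Etv4, an ETS factor induced by FGF signalling, was at 19.4, 10.1 and 14.4 FPKM against 27.3, 17.6 and 23.6 FPKM, a difference of -0.63 ± 0.09 (adjusted p = 0.154). Hbegf, an EGF receptor ligand, was at 23.3, 11.8 and 32.5 FPKM against 31.9, 19.4 and 44.2 FPKM, a difference of -0.51 ± 0.09 (adjusted p = 0.282). Both were above input in the pulldown and lower in every pair, with groups that overlapped. Of 19 measured FGF receptors, Etv factors and Sprouty genes 12 were lower in all pairs and 8 were lower at an unadjusted p under 0.05, with a median of -0.20, against 21.1%, 5.20% and -0.06 for all genes. With quantile normalization 9 of the 19 were lower in all pairs, against 13.6% of all genes. Dusp6, a phosphatase for ERK that is also a listed immediate early gene, was at -0.60 ± 0.18 and at -0.30 without replicate 2, with a log2 ratio to input of -2.15 and an input difference of -0.89. Also listed were Spry1, an inhibitor of receptor tyrosine kinases, at -0.40 ± 0.14, and the receptor Fgfr3 at -0.19 ± 0.07. Vegfa, the vascular growth factor, was at 17.3, 9.4 and 32.9 FPKM against 23.3, 13.2 and 44.5 FPKM, with pair differences of -0.41, -0.45 and -0.42. Pdgfa, a ligand for oligodendrocyte precursors, was at 7.5, 8.5 and 7.5 FPKM against 9.6, 9.8 and 9.1 FPKM. Cntf, a trophic cytokine of astrocytes, was at 2.6, 4.5 and 2.7 FPKM contralaterally and 2.3, 1.1 and 2.3 FPKM ipsilaterally, with the gap in pair 2 (1.39) far wider than in pairs 1 and 3 (0.13 and 0.17).

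The same 15 genes held Fabp7, Olig1, Adgrg1, Slco1c1 and Mir130c. Fabp7, the brain fatty acid binding protein of radial glia and young astrocytes, was at 342.3, 245.3 and 315.9 FPKM contralaterally and 408.9, 394.2 and 494.4 FPKM ipsilaterally. Those groups did not overlap, and the difference was -0.53 ± 0.09 (adjusted p = 0.282), with -0.62 between inputs. Olig1, a transcription factor of the oligodendrocyte lineage, was at 162.5, 158.5 and 125.3 FPKM against 201.1, 204.4 and 163.0 FPKM. Its difference was -0.35 ± 0.06 (adjusted p = 0.322), and 4 of 11 oligodendrocyte precursor markers were lower in all pairs, against 21.1% of all genes. Adgrg1, an adhesion receptor known from cortical development, had pair differences of -0.45, -0.50 and -0.41. Slco1c1, a carrier of thyroid hormone, had pair differences of -0.30, -0.61 and -0.48. The microRNA gene Mir130c was at 1.4, 0 and 4.2 FPKM contralaterally and 5.0, 1.4 and 8.3 FPKM ipsilaterally, values that stand for few reads in so short a gene and do not measure the mature microRNA.

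Genes of cholesterol and fatty acid synthesis had small differences that pointed the same way in most genes and pairs. In the brain, cholesterol is made locally, largely by astrocytes, and its synthesis genes are switched on together by SREBF2 when sterols are low, with SREBF1 acting on fatty acid synthesis. Of 25 listed cholesterol genes 24 passed the filter. Negative differences were found for 23 of these, against 69.9% of all genes, and 20 were lower in all 3 pairs, against 21.1%. At an unadjusted p under 0.05, 17 of the 24 were lower, against 5.20% of all genes, and 0 passed over all genes. The median was -0.26, with -0.20, -0.28 and -0.32 in the pairs and -0.28 between the inputs. With quantile normalization or median-ratio scaling the median was -0.19, and 18 genes were lower in all pairs, against 13.6% and 13.7% of all genes. All 13 fatty acid synthesis genes had negative differences, against 69.9% of all genes, and 10 were lower in all 3 pairs, against 21.1%. Their median was -0.23, and -0.09 between inputs. With quantile normalization and median-ratio scaling, 7 and 9 of the 13 were lower in all pairs, against 13.6% and 13.7% of all genes. Their medians were then -0.15 and -0.16.

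The promoter of Hmgcs1, which makes the precursor of mevalonate, is shown because it was the only 1 of 19 cholesterol gene promoters present in RefSeq to hold the letters TCACNCCAC (or GTGGNGTGA), a sterol regulatory element. Those letters were in 1.44% of all 27025 promoters. The CCAAT box, which NF-Y binds beside such elements, was found as CCAAT or ATTGG in 17 of the 19 (89.5%) and in 41.1% of all. The window is chr13:119690101-119690400 (GRCm38.p6, plus strand), with the 1 sterol element and the 4 CCAAT boxes in capitals.
Hmgcs1: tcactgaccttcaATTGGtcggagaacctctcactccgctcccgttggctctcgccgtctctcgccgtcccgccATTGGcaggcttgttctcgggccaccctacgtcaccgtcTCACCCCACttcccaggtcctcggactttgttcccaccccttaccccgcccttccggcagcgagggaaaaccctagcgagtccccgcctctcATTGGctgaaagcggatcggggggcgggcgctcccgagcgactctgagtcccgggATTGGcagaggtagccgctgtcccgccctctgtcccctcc

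Along the pathway, named genes from the first to the last steps were lower in every pair. Hmgcs1 was at 149.3, 145.0 and 294.4 FPKM contralaterally and 176.8, 192.5 and 376.4 FPKM ipsilaterally, a difference of -0.33 ± 0.07 (adjusted p = 0.359). Replicate 3 was the highest on either side, so the groups overlapped while each pair was lower. Mvd, which makes isopentenyl diphosphate, was at 71.8, 77.0 and 56.4 FPKM against 89.3, 92.4 and 75.3 FPKM. Fdps, farnesyl diphosphate synthase, had pair differences of -0.10, -0.69 and -0.54, the most uneven of those named. Sqle, squalene epoxidase, was at -0.33 ± 0.07 and Msmo1, a sterol oxidase, at -0.27 ± 0.06. Insig1, which holds the SREBP escort in the endoplasmic reticulum, was at -0.36 ± 0.08.

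On the fatty acid side, Scd1, a desaturase, was at 126.8, 78.3 and 225.9 FPKM contralaterally and 157.5, 108.6 and 284.1 FPKM ipsilaterally, a difference of -0.37 ± 0.07 (adjusted p = 0.324). Fasn, fatty acid synthase, was at -0.28 ± 0.08, Acly, which makes cytosolic acetyl-CoA, at -0.29 ± 0.08 and Acss2, which makes it from acetate, at -0.27 ± 0.07. Scd2 was at 945.4, 602.3 and 1756.1 FPKM against 1134.7, 748.5 and 1884.8 FPKM, the highest level among those named here. All were lower in every pair, and none passed over all genes. Genes of lipoproteins and cholesterol export did not share this, with 2 of 20 lower in all pairs, against 21.1% of all genes, and a median of -0.04.

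**Figure D3:**
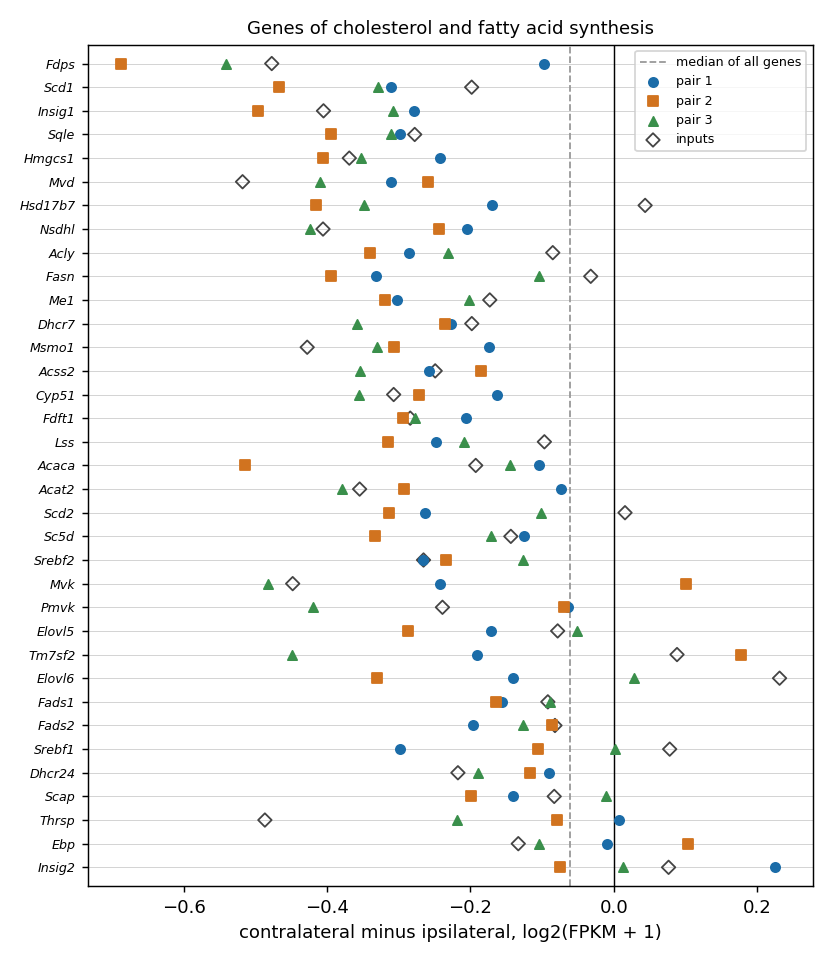
Contralateral minus ipsilateral difference in log2(FPKM + 1) for 22 of the 24 cholesterol genes and for the 13 fatty acid synthesis genes past the filter, by pair (filled) and between the single inputs (open diamonds), with the median of all genes as a dashed line. Hmgcs1, Sqle and Scd1 lie to the left of the dashed line in all 3 pairs.

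Uptake and fuel genes of astrocytes had smaller differences, and their counts depended on the scaling. Of 19 genes for transmitter uptake and potassium buffering 9 were lower in all pairs, with a median of -0.13, against 21.1% of all genes. With quantile normalization 5 were, against 13.6%, and with median-ratio scaling 7 were, against 13.7%. Slc38a3, which exports glutamine, was at 153.6, 125.2 and 159.4 FPKM against 193.8, 150.7 and 207.5 FPKM, a difference of -0.33 ± 0.06 (adjusted p = 0.359). It was lower in every pair, with groups that overlapped. Kcnj10, the potassium channel Kir4.1, was at -0.25 ± 0.07 and Slc6a9, a glycine transporter, at -0.31 ± 0.12 and at -0.16 without replicate 1. Slc1a3, the glutamate transporter GLAST, was at 672.8, 573.1 and 2008.1 FPKM against 764.5, 627.2 and 1973.2 FPKM, with a difference of -0.10 ± 0.06.

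Of 27 genes of glycolysis, glycogen and lactate transport 18 were lower in all pairs, with a median of -0.12, against 21.1% of all genes. With quantile normalization or median-ratio scaling 11 were, against 13.6% and 13.7%. Ppp1r3c, which targets a phosphatase to glycogen, was at 116.3, 79.1 and 155.6 FPKM contralaterally and 139.2, 114.4 and 198.2 FPKM ipsilaterally, a difference of -0.38 ± 0.07. Eno1, enolase, was at -0.30 ± 0.07 and Pfkp, a phosphofructokinase, at -0.29 ± 0.09. Among broad housekeeping lists, 30 of 80 respiratory chain genes (37.5%) and 24 of 61 ribosomal protein genes (39.3%) were lower in all 3 pairs, against 21.1% of all genes. With quantile normalization those counts were 19 and 11, against 13.6% of all genes, and the medians were -0.03 and -0.07. With median-ratio scaling the counts were 12 and 10, against 13.7% of all genes, and the medians were 0.00 and -0.05.

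Among genes with higher contralateral values, Etnppl had the smallest p. It encodes an astrocyte phospholyase that breaks down phosphoethanolamine, and lies at chr3:130617448-130635750 (GRCm38). Etnppl was at 39.8, 70.9 and 70.2 FPKM contralaterally and 26.7, 47.5 and 47.7 FPKM ipsilaterally. The 3 pairs showed nearly the same difference (0.56, 0.57 and 0.55), with replicate 1 low on both sides. The difference was 0.56 ± 0.07 (adjusted p = 0.147), or 1.47-fold, and the inputs were at 6.8 and 4.3 FPKM, also a difference of 0.56.

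The metallothioneins, which bind zinc and copper, were higher in every pair. Mt2 was at 1008.9, 1493.5 and 764.6 FPKM contralaterally and 811.8, 1137.9 and 691.4 FPKM ipsilaterally, a difference of 0.28 ± 0.06 (adjusted p = 0.515), and Mt1 differed by 0.24 ± 0.07. Their inputs differed the other way, by -0.07 and -0.16. Sesn3, a sestrin that restrains mTORC1, was at 33.1, 31.5 and 51.3 FPKM against 27.7, 24.5 and 35.5 FPKM, a difference of 0.37 ± 0.08. Myoc, myocilin, had pair differences of 0.35, 0.20 and 0.65, and Sfrp1, a secreted Wnt inhibitor, 0.43, 0.35 and 0.39. Tprkb, a subunit of a tRNA-modifying complex, was at 0.32 ± 0.08.

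Several of the 15 higher genes were far below input in the pulldown. Sncb, beta-synuclein of presynaptic terminals, was at 56.4, 193.7 and 55.1 FPKM contralaterally and 38.7, 172.9 and 28.8 FPKM ipsilaterally, against 518.3 and 503.2 FPKM in the inputs. Icam5, a dendritic adhesion molecule, was at 9.9, 35.2 and 14.3 FPKM against 7.8, 28.5 and 9.1 FPKM, with 70.4 and 77.9 FPKM in the inputs. Car11, Ypel4, Spock2, Isyna1, Plk5 and Glt8d2 had negative log2 ratios to input as well, from -2.53 to -0.65. Neuron marker sums were higher contralaterally in pairs 1 and 3 and lower in pair 2, as given above, and their part in these values was not tested.

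Interferon genes were high in 1 contralateral pulldown and in the contralateral input. Interferon-stimulated genes are induced in most cell types, glia included. Isg15, a ubiquitin-like protein, was at 0.8, 1.4 and 13.4 FPKM in contralateral replicates 1 to 3 and at 1.8, 0.9 and 1.0 FPKM in the ipsilateral ones, with 10.8 and 1.2 FPKM in the inputs. Replicate 3 stood apart, and the other 5 pulldowns overlapped. Bst2, which tethers viral particles, was at 3.1, 3.3 and 12.4 FPKM against 3.6, 3.3 and 2.2 FPKM, with 9.2 and 2.7 FPKM in the inputs. Ifit3, an interferon-induced RNA-response protein, was at 3.2, 7.5 and 22.4 FPKM against 4.3, 3.9 and 4.5 FPKM.

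For the 26 interferon and antigen presentation genes past the filter the median difference was 0.19, with -0.09, -0.02 and 0.82 in pairs 1, 2 and 3 and 0.40 between the inputs. Without replicate 3 it was -0.11, while all genes had medians of -0.05 and -0.14 in pairs 1 and 2. Of the 26, 2 were higher in all pairs, against 4.76% of all genes, 1 of them Ifit3b at 2.4, 5.0 and 16.4 FPKM against 2.2, 2.5 and 3.8 FPKM. The class I gene H2-D1 was at 16.2, 19.3 and 16.2 FPKM contralaterally and 16.2, 13.2 and 12.8 FPKM ipsilaterally, with pair differences of 0, 0.52 and 0.32. Microglia markers summed to 35.5, 31.6 and 29.2 FPKM contralaterally and 31.4, 38.2 and 34.2 FPKM ipsilaterally, against 472.7 and 502.1 FPKM in the inputs. Ctss, a microglial protease, was at 1.1 FPKM in contralateral replicate 3, and Tnf was listed at 0 in all 8 libraries.

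**Figure D4:**
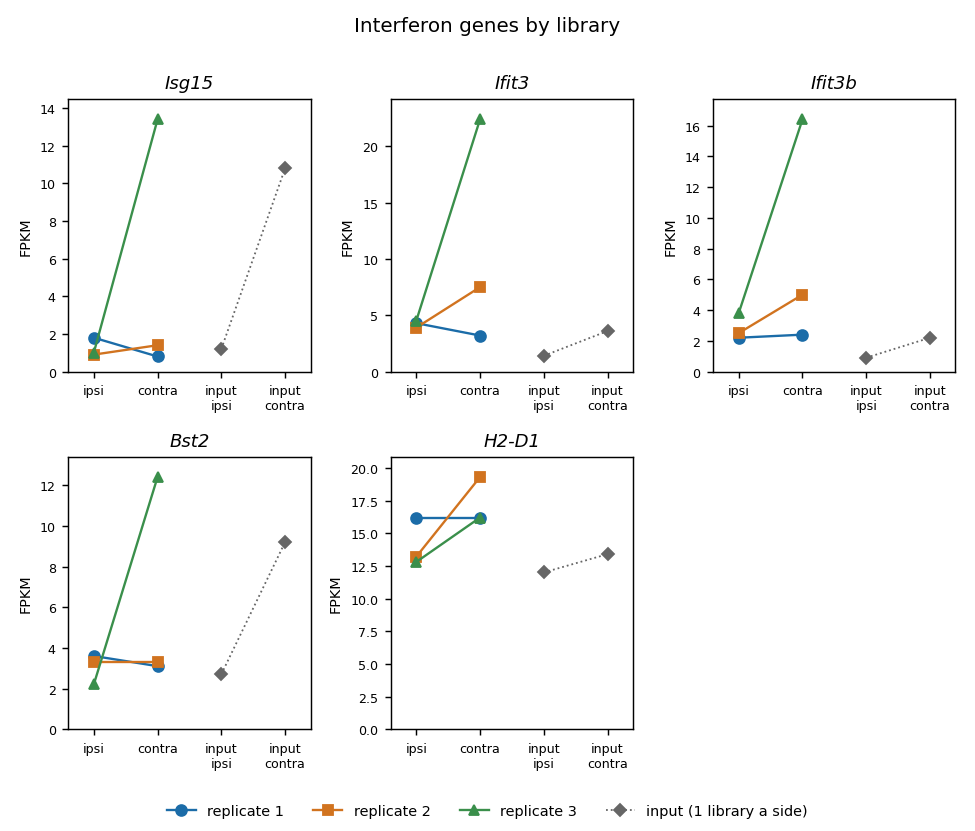
FPKM (linear axis from 0) of 5 interferon and antigen presentation genes in the ipsilateral and contralateral pulldowns, with same-numbered libraries joined, and in the single input of each side. Isg15 and Bst2 are high in contralateral replicate 3 (13.4 and 12.4 FPKM) and in the contralateral input, while H2-D1 is not set apart in replicate 3.

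For genes often named in astrocyte plasticity the intervals bound how large a difference these 3 pairs allow. Gfap, the intermediate filament, was at 538.7, 316.5 and 495.2 FPKM contralaterally and 598.2, 298.5 and 446.3 FPKM ipsilaterally, with a 95% interval of the log2 difference from -0.14 to 0.19. The gap junction genes Gja1 (connexin 43) and Gjb6 (connexin 30) had intervals from -0.09 to 0.21 and from -0.09 to 0.20. Chrdl1, an astrocyte protein that promotes maturation of AMPA receptor synapses, was at 12.0, 8.6 and 31.5 FPKM against 11.4, 10.3 and 35.6 FPKM, with an interval from -0.33 to 0.11. The glypicans Gpc4 and Gpc6, which recruit AMPA receptors, had intervals from -0.35 to 0.13 and from -0.37 to 0.18. Aqp4, the water channel, had one from -0.38 to 0.03 and Aldh1l1, an enzyme of folate metabolism that marks astrocytes, one from -0.28 to 0.00. Thbs1, a thrombospondin, was at 0 to 0.1 FPKM in the pulldowns and 0.3 FPKM in both inputs. None of these genes passed, and the intervals of Chrdl1, Gpc4, Gpc6, Aqp4 and Aldh1l1 include the cholesterol median of -0.26. In all 3 pairs, 21.1% of all genes were lower and 4.76% higher, against which the following counts stand. Of 23 secreted synapse regulators 3 were lower and 2 higher in all pairs, and of 10 connexins and partners 1 was lower and 2 higher. Reactive astrocyte genes had 1 lower and 3 higher of 14, and glutathione and oxidative defence genes 2 lower and 4 higher of 23. Astrocyte markers themselves had 12 of 25 lower in all pairs, with a median of -0.10, and 6 of 25 with either other scaling, against 13.6% and 13.7% of all genes.

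**Figure D5:**
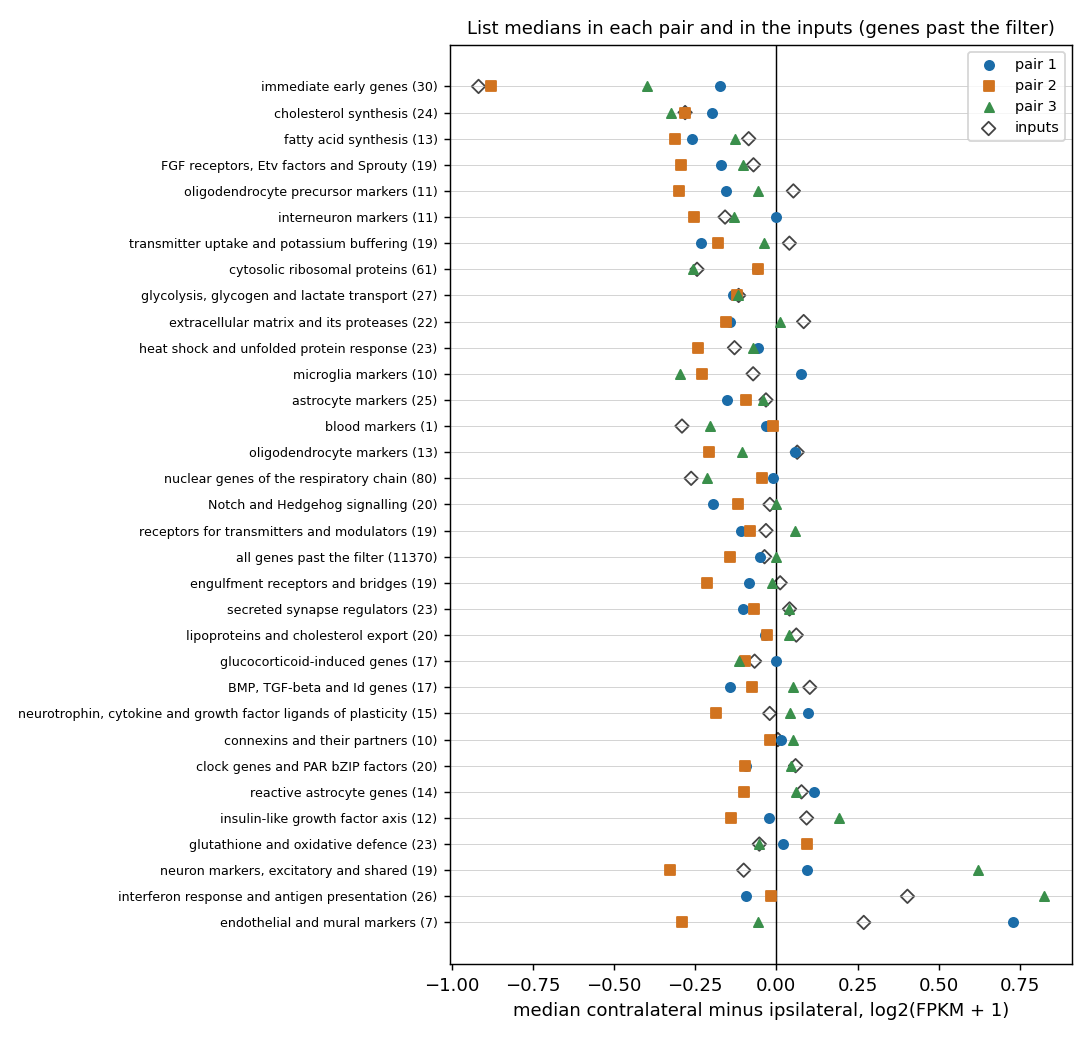
Median contralateral minus ipsilateral difference in log2(FPKM + 1) over the genes past the filter in each of 32 lists and over all genes (number of genes in parentheses), by pair (filled) and between the single inputs (open diamonds). Immediate early genes (-0.17, -0.88 and -0.40) and cholesterol synthesis (-0.20, -0.28 and -0.32) are below 0 in all 3 pairs, while the interferon list is high in pair 3 alone.

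Mice with open eyes and dark-reared mice give a scale for these levels, with the limit that they were of day 45 and were not compared by a test. Fos was at 32.7, 54.2 and 80.7 FPKM in the 3 normally reared pulldowns and averaged 7.63 ± 1.18 FPKM (SD, n = 4) after dark rearing. The ipsilateral values of 13.2, 24.2 and 30.5 FPKM thus lay below the normally reared ones, and the contralateral values of 5.9, 4.9 and 9.7 FPKM lay around the dark-reared mean. Cyr61 averaged 49.8 ± 19.4 FPKM in normal rearing and 22.7 ± 9.67 FPKM in dark rearing. Hmgcs1 averaged 271.6 ± 15.4 and 258.4 ± 38.8 FPKM in those groups, and Igfbp2 266.9 ± 46.5 and 257.6 ± 30.4 FPKM, so for both the 2 means lay within 1 SD of each other. Etnppl averaged 38.9 ± 3.47 FPKM in normal rearing and 29.4 ± 1.96 FPKM in dark rearing.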

How the data were processed

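The authors deposited 1 FPKM value per gene and library, for 24537 genes, rounded to 0.1. Builds and tools named in the submitters' processing notes are mm10, STAR 2.5.1b, HOMER 4.10, CASAVA 1.8.2, FastQC 0.11.2, DESeq2 and R 3.4.3, with roles not given in the sources used here. Spreadsheet dates standing for 26 gene names were turned back, 1 column of another sample and 3 input columns of other groups were not used, and 18 libraries entered.

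The scale was log2(FPKM + 1), with a filter at a mean of 1 FPKM over the 6 pulldowns. The fit used limma 3.58.1 in R 4.3.3, with replicate number as a block, side as the term and eBayes moderation set to trend and robust. Tests were 2-sided, and Benjamini-Hochberg adjusted over all 11370 genes at 0.05. An exact permutation test of 3 against 3 that ignores the pairing cannot go below 0.10 and was not used. One that swaps sides within the 3 pairs has fewer arrangements and a higher floor, and was not used either. Errors are SE for log2 differences and SD for means. The fit was tested on simulated data.

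The numbers come from the labels, which do not say that a number is an animal. Pairing rested on the data, since same-numbered libraries deviated together from their group means (r = 0.80, 0.79 and 0.90). These values led to the pairing and so do not test it. Other contralateral and ipsilateral libraries had -0.74 to -0.09. Deviations from a group mean cancel within the group, so those negative values follow in part from the positive ones.

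The inputs, 1 library a side, were compared by difference only. Reads were estimated from FPKM steps of microRNA genes under 130 bases. Members, the 32 lists and fixed genes were chosen with earlier results of these data known. Named genes were those passing, the 15 smallest p in each direction with all pairs alike, up to 6 per list, the fixed genes, the 10 smallest p for the number and the 10 largest input differences each way. Sequences and positions came from RefSeq on GRCm38.p6, the assembly of mm10. Some genes that this rule names, the 1 that passed between the sides among them, are not reported here. Python 3.11.15, pandas 2.3.3 and matplotlib 3.10.9 were used.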

Additional observations from a re-analysis of the deposited data

How the results depend on the processing

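The number of genes passing between the sides (1 in the paired fit) was 0 with a pseudocount of 5, without the filter, with quantile normalization, with median-ratio scaling and without the trend and robust settings. It was 7 among the 5728 genes at or above 0.75 of input, which are fewer genes to adjust over, and Adgrg1, Etnppl, Etv4, Hbegf, Igfbp2, Mir130c and Sept9 passed there. Without the replicate block it was 0, with 14 genes at an unadjusted p under 0.05. With the replicate block as a random term it was 3, Fos and Igfbp2 among them. With the block within all 16 pulldown libraries it was 0. That fit added the day 45 groups and the day 120 mice after 10 days of dark. Leaving out 1 pair at a time gave 1 to 60. For the replicate number 4407 genes passed among those at or above 0.75 of input, and 3029 to 7897 with 1 pair left out. At least 2-fold input differences (56 genes) numbered 95 with a pseudocount of 0.1, 14 with 5, and 22 above a mean of 5 FPKM. Signs turned when 1 pair was left out for Gfap (-0.033 to 0.12), Snap25 (-0.27 to 0.46), Isg15 (-0.15 to 1.59) and Bst2 (-0.083 to 1.03). The cause of these shifts was not tested. Rounding to 0.1 FPKM and 3 pairs limit what low genes can show, and contralateral replicate 2 had no depth estimate.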
